A study of Mus musculus with 6 samples.

Results

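The genes described here are the p53 family and the kinases and regulators of the DNA damage checkpoint: the apical kinases Atm and Atr, the checkpoint kinases Chek2 and Chek1, the transcription factors Trp53, Trp63 and Trp73, the p53 inhibitors Mdm2 and Mdm4, and the p53 target Cdkn1a. They were found by symbol in a table of read counts, where 10 of 10 had a row among 24369, and 10 of 10 passed the filter on low counts that left 14124 tested genes. RNA came from mouse oocytes at the germinal vesicle stage, which are fully grown and arrested before meiosis resumes. The 6 libraries made up 3 groups of 2: control oocytes, oocytes exposed to the synthetic azo dye Sudan I, and oocytes with the same exposure plus melatonin as a rescue. Values are given for library 1 and then library 2 of a group. Melatonin without Sudan I was not among the groups. The sources used here do not give the dose, route or duration, the number of oocytes in a library, or whether the 2 libraries of a group are from different mice, so p-values measure only the spread between these samples.

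When DNA breaks or replication stalls, ATM and ATR phosphorylate the kinases CHK2 and CHK1, which stop the cell cycle and act on the p53 family. MDM2 and MDM4 hold p53 in check, MDM2 by marking it for destruction and MDM4 by masking its activation domain, and p53 in turn switches on Mdm2, Cdkn1a and death genes. In mouse oocytes of resting follicles the family member that carries out damage-induced death is p63, in its long TA form, which CHK2 and then casein kinase 1 phosphorylate. Most of these steps act on proteins, which RNA counts do not measure, and counts per gene do not separate the TA form of Trp63 or Trp73 from the short form.

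Libraries held 20669373 to 26065453 counts. All 19 of 19 oocyte markers were tested and summed to 30686 to 33515 CPM (counts scaled to a common library size). Granulosa and cumulus markers summed to 670 to 796 CPM, with 20 of 23 tested, and theca and stroma markers to 2.03 to 3.89 CPM. Blood, immune and endothelial markers summed to 83.6 to 106 CPM, of which Pecam1 alone held 78.1 to 97.9 CPM, and the haemoglobin genes Hba-a1 and Hbb-bs stood at 0 in 6 of 6 libraries. In bulk RNA, fewer cells of a type and less RNA per cell cannot be told apart.

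Levels of the 10 genes differed widely, with Chek1 and the p53 inhibitors Mdm4 and Mdm2 above the 3 p53 family members. Since a longer transcript gives more reads, genes were compared as counts per kilobase of exon scaled to the same total per library. On this scale Chek1 had 502 ± 47.5 (SD, n = 6) and Mdm4 480 ± 58.4, and their ranges over the 6 libraries overlapped. Mdm2 followed at 125 ± 6.86, Trp53 at 36.1 ± 2.81, Trp63 at 22.1 ± 3.32, Trp73 at 14.0 ± 1.97 and Atr at 10.9 ± 1.60. Atm had 5.18 ± 1.18, Chek2 4.63 ± 0.722 and Cdkn1a 1.01 ± 0.511. Ranges also overlapped between Trp63 and Trp73, between Trp73 and Atr, and between Atm and Chek2, while the other neighbours were apart.

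**Figure D1:**
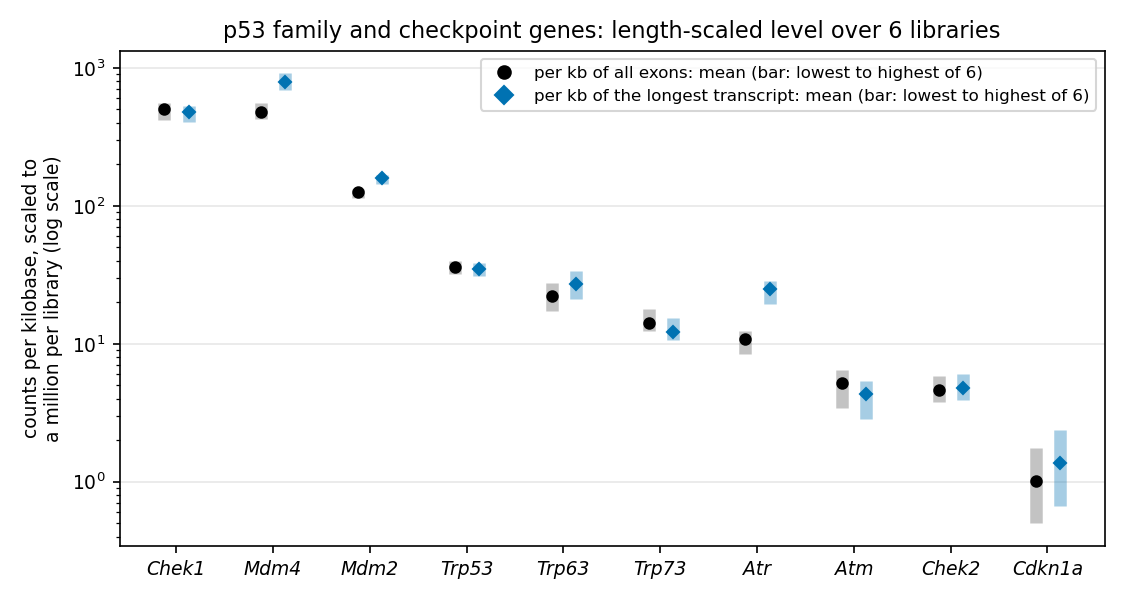
Length-scaled level of each gene (counts per kilobase scaled to the same total per library, log axis), with the mean as a point and the range over the 6 libraries as a bar, once per kilobase of all annotated exons and once per kilobase of the longest transcript. On the exon scale Chek1 lies at 502, Mdm4 at 480 and Cdkn1a at 1.01, and Mdm4 and Atr are the genes that move most with the choice of length.

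The order at the top, in the middle and near the bottom depended on the length used. Per kilobase of the longest annotated transcript, Mdm4 had a mean of 785 (range 694 to 913 over the 6 libraries) and stood above Chek1 at 482 (403 to 533). Atr had 24.9 (19.5 to 28.5), above Trp73 at 12.1 (10.7 to 15.3). Chek2 at 4.80 (3.93 to 6.01) stood above Atm at 4.29 (2.85 to 5.33), with overlapping ranges. The ranges of Trp53 (31.2 to 38.7) and Trp63 (21.1 to 33.8) also overlapped on this scale. The exons of Atr cover 23.629 kb while its longest transcript has 8.102 kb, and for Mdm4 these lengths are 14.798 and 7.105 kb. Unscaled, Mdm4 ranked 26 and Chek1 228 among the 14124 tested genes by mean CPM.

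Within the p53 family, Trp53 held 44.6% to 53.4% of the summed length-scaled level over the 6 libraries, Trp63 25.8% to 38.2% and Trp73 17.2% to 22.7%. Per kilobase of the longest transcript the mean shares were 47.2% ± 3.55, 36.5% ± 4.57 and 16.3% ± 2.07 (SD, n = 6). Trp53 led in 6 of 6 libraries on the exon scale, with 44.6% as its lowest share against 38.2% for Trp63 in the same library, control library 2. On the longest-transcript scale Trp63 led in that library, with 44.7% against 41.2%.

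Inhibitor transcripts outnumbered those of p53 in every library. Mdm2 stood 3.11 to 4.08 times above Trp53 per kilobase of exon, and Mdm4 11.4 to 17.0 times. Chek1 exceeded Chek2 by 91.7 to 130 times, and Atr exceeded Atm by 1.72 to 2.47 times, or 4.75 to 6.84 times per kilobase of the longest transcript.

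**Figure D2:**
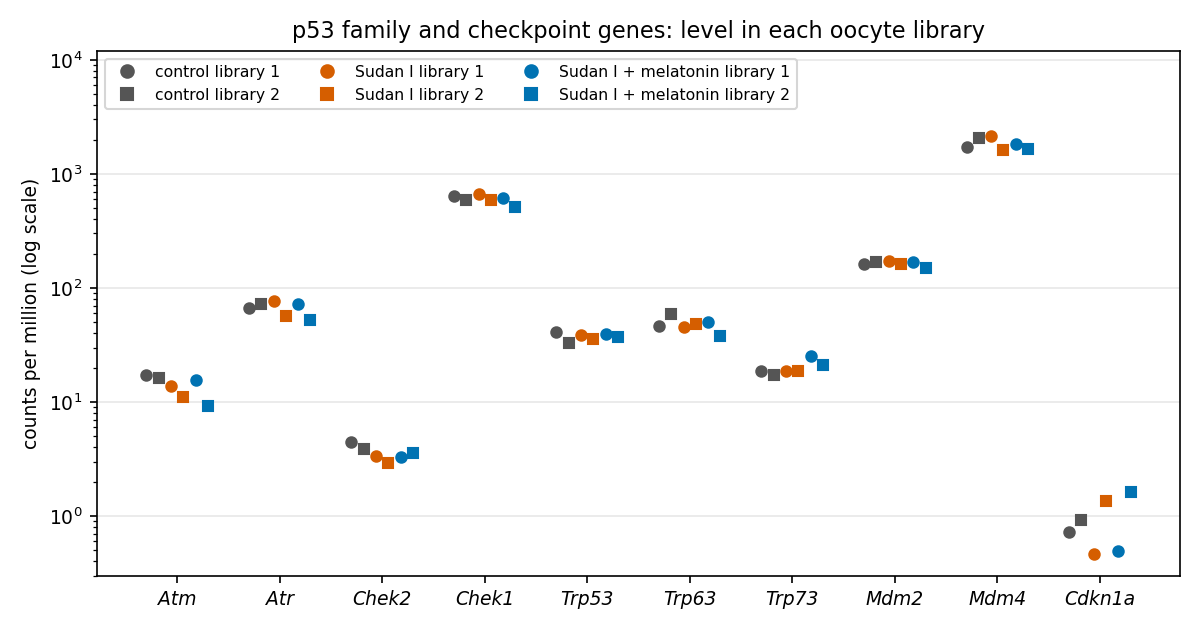
Level of each gene in each library in CPM on a log axis, grey for control, orange for Sudan I and blue for Sudan I plus melatonin, with circles for library 1 and squares for library 2. For most genes the 6 points lie close together, while control points lie above all exposed ones for Atm and Chek2 and both melatonin points lie above the rest for Trp73.

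The comparison of Sudan I with control oocytes asks whether exposure moved the transcripts of this pathway. Of the 10 genes, 5 had positive and 5 negative log2 fold changes in edgeR's quasi-likelihood test, with a median of 0.00, equal to the median of 0.00 over all tested genes. None passed an adjusted p of 0.05 (smallest edgeR adjusted p = 0.9999), against 0.00708% of all tested genes, and 0 of 10 had an unadjusted p under 0.05, against 3.16%. DESeq2 called 0 of the 10 as well, against 0.0779% of all. With limma-voom 0 of the 10 were called too, and its share over all tested genes is not given here. For 8 of 10 genes the 95% interval stayed inside 1 log2 unit either way, the exceptions being Chek2 and Cdkn1a, against 69.9% of all tested genes.

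Oocytes given melatonin were set against those with Sudan I alone, for the effect of the rescue, and against control, for what still differed. They share the Sudan I or the control libraries with the first comparison, so the values are not independent. Against Sudan I, 4 of the 10 genes were positive and 6 negative (median -0.04, against -0.01 over all tested genes), and 0 passed (smallest edgeR adjusted p = 0.994), where 0% of all tested genes did. Against control, 3 were positive and 7 negative (median -0.14, against -0.01 over all), and 0 passed (smallest edgeR adjusted p = 0.956), where 0.00708% of all tested genes did. At an unadjusted edgeR p under 0.05 there were 0 of 10 in each, against 3.83% and 4.6% of all tested genes. DESeq2 called 0 of 10 in each, against 0.0637% and 0.085% of all. With limma-voom 0 of 10 were called in each, again without a share over all genes given. For 9 of 10 genes the interval stayed inside that margin in both, Cdkn1a being the exception, against 70.1% and 68.9% of all tested genes. A test for any difference among the 3 groups called 0 of 10 (edgeR adjusted p = 0.999 for each), where 0.00708% of all tested genes were called and 3.47% had an unadjusted p under 0.05.

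**Figure D3:**
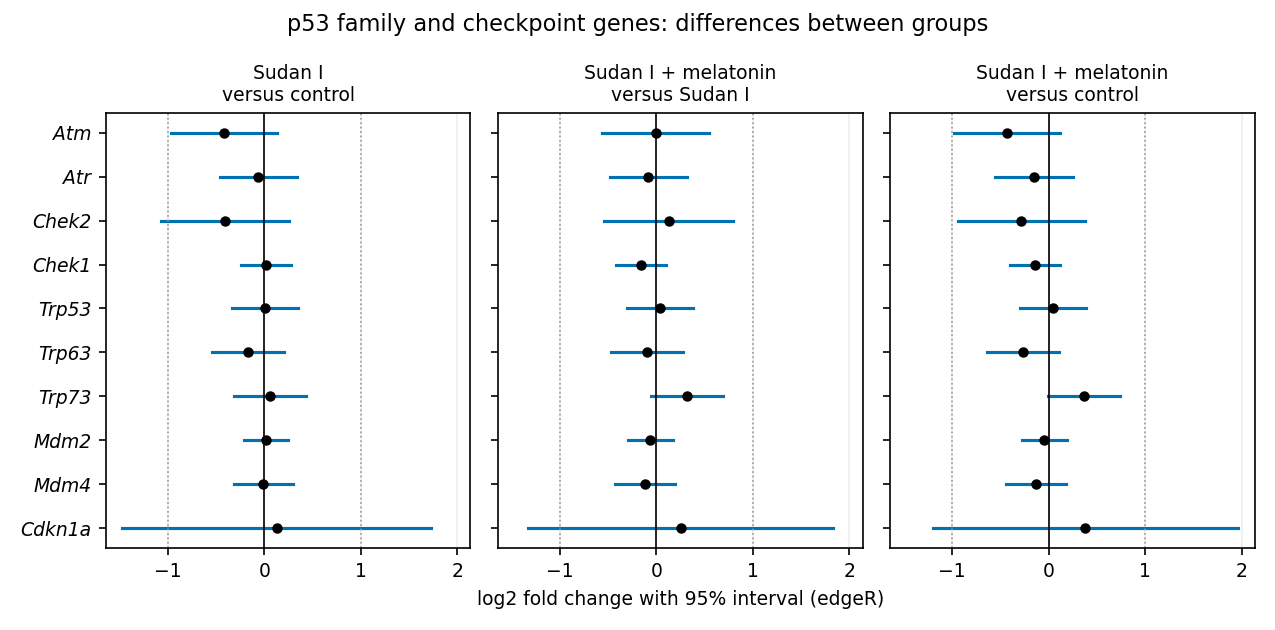
Log2 fold change of each gene (point) with its 95% interval (line) from the edgeR fit, in 3 panels for Sudan I versus control, Sudan I plus melatonin versus Sudan I, and Sudan I plus melatonin versus control; dotted lines mark 1 log2 unit. Each of the 30 intervals includes 0, and those of Cdkn1a are the widest.

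The apical kinase Atm, which responds to double-strand breaks, lies on chromosome 9 from 53439149 to 53536740 on the reverse strand (GRCm38). It had 17.1 and 16.1 CPM in the control pair, 13.8 and 11.1 with Sudan I alone, and 15.5 and 9.31 with melatonin added. Both control libraries stood above all 4 exposed ones, and the melatonin libraries lay farther apart than those of any other group. On the log2 scale Sudan I and melatonin each lay below control: the difference was -0.42 (SE 0.25, 95% interval -0.97 to 0.13; edgeR, adjusted p = 0.9999) for Sudan I and -0.43 (SE 0.25, interval -0.98 to 0.12, adjusted p = 0.956) for Sudan I plus melatonin, each against control. Without melatonin library 2 the latter was -0.10, and without melatonin library 1 it was -0.83 (edgeR adjusted p = 0.472). Without Sudan I library 1 the former was -0.58, and without Sudan I library 2 it was -0.27.

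Atr, the kinase of stalled replication forks, lies on the same chromosome from 95857597 to 95951781 on the forward strand. It had 67.1 and 71.8 CPM in the control pair, 76.2 and 56.5 with Sudan I alone, and 72.6 and 52.5 with melatonin added. Groups overlapped, and Sudan I library 2 and melatonin library 2 were the lowest. Its log2 fold changes were -0.06 (SE 0.18) for Sudan I versus control, -0.09 (SE 0.18) for melatonin versus Sudan I and -0.15 (SE 0.18) for melatonin versus control. An antisense gene, 1700065D16Rik, shares 726 bases of exon with Atr and had 0 to 8 counts per library. Gm16794 on the opposite strand (462 bases) and Gm24004 on the same strand (178 bases) also share exon with Atr. Neither had a row of counts.

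The libraries in which Atm and Atr were lowest also held fewer reads from other long transcripts. Over the 1017 genes whose longest transcript exceeds 7 kb, with a mean of at least 5 CPM, the median deviation from the 6-library mean of log2(CPM + 0.5) was -0.07 in Sudan I library 2 and -0.15 in melatonin library 2, and 0.03 to 0.07 in the other 4. On that scale Atm stood at -0.27 and -0.52 and Atr at -0.21 and -0.32 in Sudan I library 2 and melatonin library 2. Over 1761 genes whose longest transcript is under 2 kb the medians in those libraries were 0.02 and 0.13. The part of transcript length in the Atm and Atr values was not tested.

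**Figure D4:**
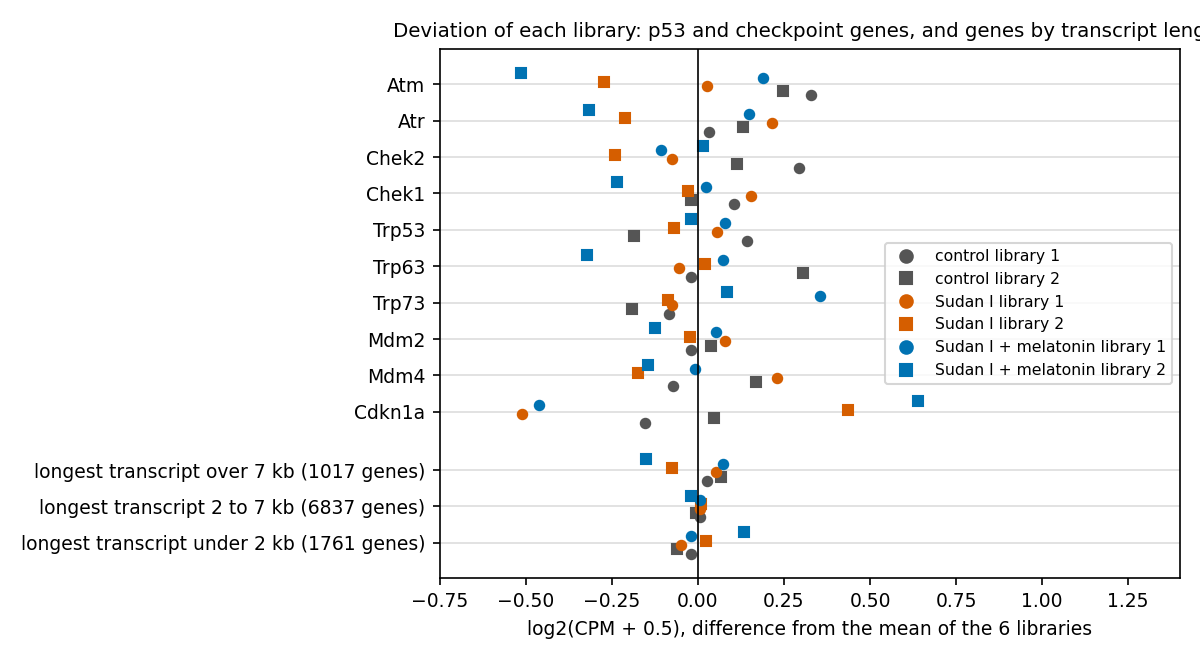
Deviation of each library from the 6-library mean of log2(CPM + 0.5), for each gene and for the median of 3 classes of genes by longest transcript (over 7 kb, 2 to 7 kb, under 2 kb), with colours by group and symbols by library. The squares of Sudan I and melatonin lie to the left for Atm, Atr, Mdm4, Chek1, Mdm2 and Trp53, and for the class over 7 kb. For Cdkn1a they lie to the right.

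The checkpoint kinase Chek2 (chromosome 5, 110839979 to 110874145, forward strand), which in mouse oocytes acts between ATM and p63, was the second lowest of the 10 in CPM. It had 98 and 102 counts, or 4.47 and 3.89 CPM, in the control pair. Sudan I libraries had 3.35 and 2.93 CPM and melatonin libraries 3.26 and 3.59. Controls again stood above all exposed libraries, the closest pair being 3.89 and 3.59 CPM. On the log2 scale Chek2 lay at -0.41 (SE 0.30, interval -1.07 to 0.25; edgeR, adjusted p = 0.9999) for Sudan I versus control and -0.28 (SE 0.30, interval -0.94 to 0.38, adjusted p = 0.956) for Sudan I plus melatonin versus control, the latter being -0.18 without control library 1.

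Non-overlap of this kind is common in groups of 2. Between Sudan I and control, 2 of 10 genes (Atm and Chek2) were lower without overlap, against 15.9% of all tested genes, and 0 of 10 higher, against 16.1%. Between Sudan I plus melatonin and control the same 2 genes were lower, against 17% of all, and Trp73 was higher, against 16.5%. Controls stood above all 4 exposed libraries for 6.03% of all tested genes.

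Chek1, the kinase downstream of ATR that restrains CDC25 phosphatases, was abundant at 643 and 591 CPM in the control pair, 666 and 587 with Sudan I alone, and 608 and 509 with melatonin added. Melatonin library 2 was the lowest and the groups overlapped. Its log2 fold changes were 0.02 (SE 0.12, interval -0.24 to 0.28) for Sudan I versus control, -0.16 (SE 0.12, interval -0.42 to 0.09) for melatonin versus Sudan I and -0.14 (SE 0.12, interval -0.40 to 0.12) for melatonin versus control. Both melatonin values moved with single libraries: without melatonin library 2 they were -0.04 and -0.02, and without melatonin library 1 they were -0.29 and -0.27.

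Trp53, on chromosome 11 from 69580359 to 69591873 (forward strand), had 41.4 and 32.9 CPM in the control pair, 39.0 and 35.8 with Sudan I alone, and 39.7 and 37.0 with melatonin added. The control libraries held both its highest and its lowest value. Its log2 fold changes were 0.01 (SE 0.15), 0.04 (SE 0.15) and 0.04 (SE 0.15) in the 3 comparisons in the order above, and every interval lay between -0.33 and 0.39. The intervals of all 3 lay between 0.79-fold and 1.31-fold.

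Trp63, whose product carries out damage-induced death in oocytes of resting follicles, lies on chromosome 16 from 25683763 to 25892102 (forward strand). It had 46.7 and 58.6 CPM in the control pair, 45.6 and 48.0 with Sudan I alone, and 49.8 and 37.8 with melatonin added. Control library 2 was the highest and melatonin library 2 the lowest, and the groups overlapped. The log2 fold change was -0.17 (SE 0.17, interval -0.54 to 0.20) for Sudan I versus control, -0.10 (SE 0.17) for melatonin versus Sudan I and -0.27 (SE 0.17, interval -0.64 to 0.11) for melatonin versus control. The last was -0.08 without melatonin library 2 and -0.48 without melatonin library 1.

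Trp73, which guards spindle and chromosome number in mouse oocytes, was the gene with the smallest p of the 10. It lies on chromosome 4 from 154056253 to 154140208 (reverse strand) and had 18.7 and 17.3 CPM in the control pair, 18.8 and 18.7 with Sudan I alone, and 25.5 and 21.1 with melatonin added. Both melatonin libraries lay above the other 4, as for 7.55% of all tested genes, while control and Sudan I libraries overlapped. Against Sudan I it stood 0.31 higher on the log2 scale (SE 0.17, interval -0.06 to 0.69; edgeR, adjusted p = 0.994), and libraries were higher without overlap as for 14.8% of tested genes. That value was 0.18 without melatonin library 1 and 0.45 without melatonin library 2. Against control it was 0.37 (SE 0.17, interval 0.00 to 0.74; edgeR, adjusted p = 0.956), with 0.23 when melatonin library 1 was left out and 0.50 without melatonin library 2. Sudan I versus control gave 0.06 (SE 0.17). Of the summed level of the 3 family members per kilobase of exon, Trp73 held 17.6% and 17.2% in the control pair, 18.4% and 18.8% with Sudan I alone and 22.7% and 21.8% with melatonin added. An antisense gene, Trp73os, shares 280 bases of exon with Trp73, and the sources used here do not say whether reads were counted by strand.

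Mdm2, the ubiquitin ligase of p53 and itself a p53 target, varied least, with a highest library 1.15 times its lowest. It had 162 and 169 CPM in the control pair, 173 and 162 with Sudan I alone, and 170 and 151 with melatonin added. Groups overlapped throughout, and the log2 fold changes were 0.02 (SE 0.10), -0.06 (SE 0.10) and -0.04 (SE 0.10) in the same order, with every interval between -0.29 and 0.25. Mdm4, its partner without ligase activity of its own, had 1730 and 2045 CPM in the control pair, 2136 and 1614 with Sudan I alone, and 1811 and 1646 with melatonin added. The Sudan I libraries held its highest and lowest values. Mdm4 had log2 fold changes of -0.01 (SE 0.14), -0.12 (SE 0.14) and -0.13 (SE 0.14).

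Cdkn1a, which encodes the CDK inhibitor p21 and is the classic readout of active p53, was close to the detection limit. It had 16 and 24 counts in the control pair, 11 and 30 with Sudan I alone and 10 and 40 with melatonin added, or 0.73 and 0.91, 0.46 and 1.35, and 0.49 and 1.63 CPM. Each exposed group held 1 library below and 1 above both controls. The log2 fold change was 0.13 (SE 0.72, interval -1.47 to 1.73) for Sudan I versus control, 0.25 (SE 0.71) for melatonin versus Sudan I and 0.38 (SE 0.71, interval -1.20 to 1.97) for melatonin versus control, with edgeR adjusted p of 0.9999, 0.998 and 0.977. Its direction turned in each comparison when 1 exposed library was left out: Sudan I versus control was -0.83 without Sudan I library 2, and melatonin versus control was -0.73 without melatonin library 2. At this depth the interval for Sudan I versus control ran from 0.36-fold to 3.32-fold. A gene on the opposite strand, AC167363.2, shares 273 bases of exon with Cdkn1a and had no row of counts. Granulosa and cumulus markers, whose cells also express Cdkn1a, summed to 670 and 706 CPM in the control pair, 712 and 679 with Sudan I alone, and 696 and 796 with melatonin added. Serpine2 alone held 256 to 308 CPM of that sum, and lower members of the list varied more. Inhbb had 15.1 and 4.38 CPM in the control pair, 36.3 and 4.33 under Sudan I, and 19.4 and 63.6 after melatonin. Inha ranged from 21.1 to 92.9 CPM. Inhbb and Inha were highest in melatonin library 2, as Cdkn1a was. Both were lowest in Sudan I library 2, where Cdkn1a stood above both controls. Other members, such as Foxl2 and Amhr2, were highest in control library 2. Of the 20 tested markers 0 passed the adjusted threshold. For Sudan I versus control 9 were positive and 11 negative. There 2 had an unadjusted edgeR p under 0.05, against 3.16% of all tested genes: Amh at -1.46 (SE 0.48) and Wt1 at -1.64 (SE 0.48). For melatonin versus control 1 higher and 1 lower marker had such a p, against 4.6% of all. For melatonin versus Sudan I 0 did, against 3.83%. The part of these cells in the Cdkn1a value was not tested.

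Promoter windows from RefSeq (GRCm38.p6, 250 bases before and 50 from each start on) were found for 9 of the 10 genes, 12 windows in all, Trp63 having no entry. They were searched on both strands for CCAAT, for GCGGGAA, letters found in many E2F sites, and for the p53 response element of 20 letters with at most 1 mismatch and both core tetramers intact. The p53 element was present in 1 of the 12 windows, that of the upstream start of Cdkn1a, and in 0.0548% of 32851 windows genome-wide. It begins at position -51, counted from 0 at the start base, and this start lies 2790 bases before the other. The window is shown since it holds the site through which p53 is known to drive Cdkn1a, with the element in capitals.
Cdkn1a upstream start, chr17:29090729-29091028, forward strand: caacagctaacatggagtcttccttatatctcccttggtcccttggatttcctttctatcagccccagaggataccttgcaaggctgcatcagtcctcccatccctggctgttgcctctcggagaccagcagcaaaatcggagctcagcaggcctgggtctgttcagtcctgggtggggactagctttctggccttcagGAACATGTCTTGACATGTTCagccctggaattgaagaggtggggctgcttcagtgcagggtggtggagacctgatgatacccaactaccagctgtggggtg

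The windows of Atm, Chek2 and Trp73 are shown because these are the genes whose libraries separated by group. Capitals mark CCAAT and GCGGGAA on either strand (ATTGG and TTCCCGC on the other).
Atm, chr9:53536622-53536921, reverse strand: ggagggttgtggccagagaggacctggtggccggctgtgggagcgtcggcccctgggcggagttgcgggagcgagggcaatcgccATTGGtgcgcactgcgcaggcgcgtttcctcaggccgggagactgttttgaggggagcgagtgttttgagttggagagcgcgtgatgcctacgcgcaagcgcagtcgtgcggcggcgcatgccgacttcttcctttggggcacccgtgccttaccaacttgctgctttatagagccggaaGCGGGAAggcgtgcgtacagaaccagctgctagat
Chek2, chr5:110839733-110840032, forward strand: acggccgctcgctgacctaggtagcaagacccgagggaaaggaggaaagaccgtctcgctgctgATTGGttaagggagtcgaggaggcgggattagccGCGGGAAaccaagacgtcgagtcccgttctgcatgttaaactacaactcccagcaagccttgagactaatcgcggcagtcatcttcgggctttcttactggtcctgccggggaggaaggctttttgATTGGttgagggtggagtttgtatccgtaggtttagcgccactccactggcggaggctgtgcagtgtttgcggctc
Trp73, upstream start, chr4:154139826-154140125, reverse strand: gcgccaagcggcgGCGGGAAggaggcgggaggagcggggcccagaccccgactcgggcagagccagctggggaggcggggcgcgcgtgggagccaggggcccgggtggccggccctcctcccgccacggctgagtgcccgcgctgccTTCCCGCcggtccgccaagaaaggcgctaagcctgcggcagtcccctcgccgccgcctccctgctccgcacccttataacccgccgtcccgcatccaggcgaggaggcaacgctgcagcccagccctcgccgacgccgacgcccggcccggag

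CCAAT occurred in 37.4% of all windows and GCGGGAA in 4.60%. Chek2 held CCAAT at positions -186 and -26 and GCGGGAA at -152, Atm held CCAAT at -165 and GCGGGAA at 15, and Trp73 held GCGGGAA at -237 and -103. Among the other genes with a window, Chek1 held GCGGGAA at position 43, Mdm2 CCAAT at -72 and Trp53 CCAAT at -8. Neither motif was found in the windows of Atr, Mdm4 and Cdkn1a, or at the other start of Trp73. These matches describe the letters of the windows and were not tied to any count. The Atm window shares 125 bases with that of Npat, a coactivator of histone genes read in the opposite direction, and the starts lie 376 bases apart. Npat, looked at for that reason, had 40.8 and 50.03 CPM in the control pair, 42.0 and 47.1 with Sudan I alone, and 48.5 and 29.0 with melatonin added, so its control libraries did not stand above the exposed ones as those of Atm did.

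The wider pathway was read from 5 lists of genes. In edgeR's test 0 of their genes passed the adjusted threshold in any of the 3 comparisons. Of 101 tested genes in the lists together, 2, 4 and 5 had an unadjusted p under 0.05 in the 3 comparisons, or 1.98%, 3.96% and 4.95%, against 3.16%, 3.83% and 4.6% of all tested genes, which is near the background. They were Pmaip1 and Cdkn2c for Sudan I versus control, H2afx, Hus1, Etaa1 and Ccnb1 for melatonin versus Sudan I, and Aen, Rad9a, Sirt1, Wee1 and Cdkn2c for melatonin versus control. Of 33 p53 target genes 28 were tested: 14 were positive and 14 negative for Sudan I versus control (median 0.00), 12 and 16 for melatonin versus Sudan I (median -0.01), and 14 and 14 for melatonin versus control (median 0.00). Pmaip1, the death gene NOXA, had 14 and 6 counts in the control pair, 13 and 57 with Sudan I alone and 17 and 17 with melatonin added. Sudan I library 2 stood alone. The value of 1.85 for Sudan I versus control on the log2 scale (SE 0.80, edgeR adjusted p = 0.9999) was 0.35 when that library was left out. Bbc3, the death gene PUMA, had 10 and 0 counts in the control pair, 2 and 4 with Sudan I alone and 1 and 2 with melatonin added. It did not pass the filter on low counts.

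Levels of the other p53 targets that passed the filter differed widely. Fas, a death receptor and the lowest of these by mean, had 0.15 to 0.54 CPM. Rrm2b, a ribonucleotide reductase subunit and the highest of the list, had 226 to 281 CPM. Bax, a pore-forming death protein, ranged from 6.92 to 9.84 CPM, Ccng1 from 6.36 to 9.07, Sesn1, a stress-response gene, from 3.16 to 5.18, Zmat3 from 4.42 to 5.83, Gadd45a, a growth-arrest gene, from 0.74 to 2.10, and Btg2, an antiproliferative gene, from 23.3 to 33.2. Aen, a nuclease, had the smallest p among targets for melatonin versus control, at -0.56 (SE 0.21, edgeR adjusted p = 0.956), and -0.36 without control library 2.

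Damage sensors and mediators, all 27 tested, had 15 positive and 12 negative members for Sudan I versus control (median 0.00), 10 and 17 for melatonin versus Sudan I (median -0.03) and 10 and 17 for melatonin versus control (median -0.05). In the complex that brings ATM to breaks, Rad50 ranged from 273 to 328 CPM, Mre11a from 34.4 to 45.3 and Nbn from 29.8 to 36.2. Among the partners of ATR and CHK1, Topbp1 ranged from 222 to 262 CPM, Clspn from 148 to 195 and Atrip from 14.4 to 18.3. Brca1 ranged from 211 to 275 CPM and Trp53bp1 from 186 to 229. Hus1, of the clamp that activates ATR, had 127 and 96.0 CPM with Sudan I alone and 89.0 and 79.5 with melatonin added, which gave -0.41 on the log2 scale (SE 0.14, edgeR adjusted p = 0.994). Etaa1, an ATR activator, had -0.31 (SE 0.12) in the same comparison. Without Sudan I library 1 these values were -0.19 for Hus1 and -0.17 for Etaa1, and without Sudan I library 2 they were -0.60 and -0.43. H2afx, the histone that ATM marks at breaks, had 66.9 and 71.7 CPM with Sudan I alone and 78.4 and 96.4 with melatonin added, at 0.34 (SE 0.13, edgeR adjusted p = 0.994), and 0.18 without melatonin library 2.

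Modifiers of the p53 family proteins, all 29 tested, had 14 positive and 15 negative members in each of the 3 comparisons, with medians of 0.00, -0.01 and -0.04. Usp7, which removes ubiquitin from p53 and MDM2, ranged from 802 to 909 CPM. The casein kinase 1 genes Csnk1e, Csnk1a1 and Csnk1d, the family that completes p63 activation in mouse oocytes, ranged from 511 to 548, from 288 to 347 and from 79.4 to 99.0 CPM. Itch, a ligase for p63 and p73, ranged from 30.5 to 41.5 CPM and Ppm1d, a phosphatase that ends the checkpoint, from 35.8 to 40.0. Sirt1, a deacetylase of p53, had -0.32 (SE 0.12, edgeR adjusted p = 0.956) for melatonin versus control.

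The next list held 11 cell-cycle genes around CDK1 and CDK2, not all of them direct targets of checkpoint kinases. Of the 11, 9 were positive and 2 negative for Sudan I versus control (median 0.06). There were 3 and 8 for melatonin versus Sudan I (median -0.04) and 7 and 4 for melatonin versus control (median 0.05). The CDK1-inhibiting kinase of oocytes Wee2 ranged from 524 to 584 CPM and the phosphatases Cdc25a, Cdc25b and Cdc25c from 174 to 197, from 156 to 180 and from 11.4 to 16.7. Cdk1 ranged from 92.4 to 104 CPM. Wee1 had 88.2 and 86.6 CPM in the control pair, 54.6 and 80.5 with Sudan I alone and 71.1 and 62.6 with melatonin added, with -0.37 (SE 0.17) and -0.39 (SE 0.17) for Sudan I and for melatonin versus control. The Sudan I value was -0.12 without Sudan I library 1 and -0.68 without Sudan I library 2. Ccnb1, the cyclin of CDK1, had -0.30 (SE 0.12, edgeR adjusted p = 0.994) for melatonin versus Sudan I. Its value was -0.11 without Sudan I library 1, which at 513 CPM stood above the other 5, and -0.47 without Sudan I library 2.

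The 6 other CDK inhibitors were all tested, with 2 positive and 4 negative for Sudan I versus control (median -0.08), 3 and 3 for melatonin versus Sudan I (median 0.00) and 3 and 3 for melatonin versus control (median -0.05). Cdkn1b, encoding p27 and the closest relative of Cdkn1a by function, ranged from 30.1 to 38.5 CPM, far above the 0.46 to 1.63 CPM of Cdkn1a. Cdkn2c, encoding p18, had 7.80 and 7.74 CPM in the control pair, 9.59 and 14.2 with Sudan I alone and 11.2 and 11.4 with melatonin added. Cdkn2c was higher without overlap in each comparison with control, as were 16.1% of all tested genes for Sudan I and 16.5% for melatonin. The log2 difference was 0.61 (SE 0.23, edgeR adjusted p = 0.9999) for Sudan I versus control and 0.54 (SE 0.23, adjusted p = 0.956) for melatonin versus control. The former was 0.30 without Sudan I library 2 and 0.87 without Sudan I library 1.

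**Figure D5:**
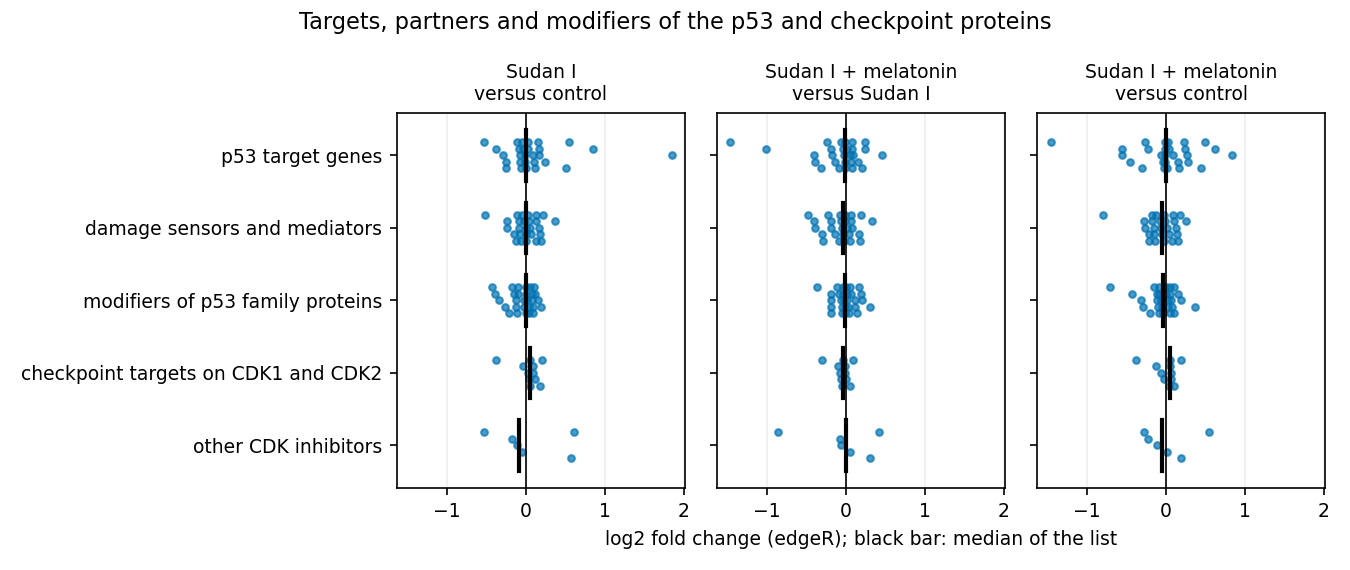
Log2 fold changes of the tested genes of 5 lists (points) with the list median (black bar), in 3 panels for the 3 comparisons. Medians lie between -0.08 and 0.06, and the point farthest from 0 for Sudan I versus control is Pmaip1 at 1.85.

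Patterns over the 6 libraries were also matched against all 9676 genes with a mean of at least 5 CPM, by the root mean square difference of centred log2 CPM. Nearest to Trp63 were Usp22 at 0.02, Ppp1r13b at 0.02 and Stam2 at 0.03. Ppp1r13b, which encodes the p53-binding protein ASPP1, had 126 and 166 CPM in the control pair, 126 and 132 with Sudan I alone and 136 and 103 with melatonin added. Usp22, Stam2 and Ppp1r13b all had the same highest and lowest libraries as Trp63. These genes were picked as the nearest of 9676 over 6 libraries, and how often such small differences occur was not tested. Nearest to Atm, the gene of the 10 with the widest range above 5 CPM, were Nlgn1 at 0.05, Ids at 0.08 and Gabpb2 at 0.09.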

How the data were processed

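The authors deposited raw read counts per gene symbol in 1 table with 1 column per library; the sources used here do not give aligner, counting program, genome build or strand setting. In 27 rows, with 0.256% of counts, a date replaced the symbol; they stayed in the fit and were not named. The counts entered edgeR 4.0.16 under R 4.3.3 (filterByExpr defaults, minimum count 10, TMM scaling, quasi-likelihood F test on 1 fit of all 6 libraries with 3 residual degrees of freedom), checked on simulated counts. Calls used a Benjamini-Hochberg adjusted p under 0.05 over 14124 genes. DESeq2 1.42.0 and limma-voom (limma 3.58.1) were alternatives. CPM were counts over the library's tested counts times its TMM factor. Lengths and positions came from GENCODE M21 (GRCm38), which matched 23203 symbols directly and 762 as synonyms; the authors' build may differ. An exact permutation test of 2 against 2 libraries cannot pass 0.05, so none was used.

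The genes, lists and tests were chosen with earlier results of these data known. Named genes were the 10, a fixed set from the lists, up to 2 per list and comparison with the smallest p (not all are printed), and the 3 nearest in pattern to Trp63 and to Atm. Npat was added after its window was seen. Replicate numbers were not used as a block.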

Additional observations from a re-analysis of the deposited data

How the results depend on the processing

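Calls among the 10 genes stayed at 0 in each comparison under the 13 alternatives tried. Of their 30 values, 0 had an unadjusted edgeR p under 0.05 in the reported fit, against 3.16% to 4.6% of all tested genes. With the replicate block 2 did, and with only the groups compared 1 did. The share of all tested genes under those 2 settings is not given here, so these counts are not read as a result. Counts over all tested genes moved. With no filter on low counts, 88 genes were called for Sudan I versus control, 67 for melatonin versus Sudan I, 93 for melatonin versus control and 160 among any of the 3 groups. DESeq2 called 11, 9 and 12 in the 3 comparisons. Leaving out 1 library gave 1 to 4, 0 to 1, 1 to 3 and 1 to 3 calls. The replicate numbers of the labels do not pair the libraries by any statement of the labels (correlation of deviations 0.04 to 0.11 over 9676 genes); with the number as a replicate block the calls were 1, 0, 1 and 1. With the code number of the column headers as the block, an alternative chosen after seeing the data that leaves 1 residual degree of freedom, they were 139, 45, 56 and 147. The cause was not tested.

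Of the 30 fold changes of the 10 genes, 27 kept their direction when no library was left out. Cdkn1a turned for Sudan I versus control, to -0.075 with limma-voom, -0.024 with the replicate block and -0.30 with the header-code block. Under the latter Trp53 turned to -0.11 against Sudan I and -0.028 for melatonin versus control. With 1 library left out, 18 of 30 turned in at least 1 case. For Sudan I versus control the log2 ranges were -0.29 to 0.13 for Atr, -0.070 to 0.11 for Chek1, -0.15 to 0.18 for Trp53, -0.33 to 0.0031 for Trp63, -0.030 to 0.069 for Mdm2, -0.22 to 0.18 for Mdm4 and -0.83 to 0.71 for Cdkn1a. For melatonin versus Sudan I they were -0.41 to 0.32 for Atm, -0.33 to 0.15 for Atr, -0.028 to 0.10 for Trp53, -0.30 to 0.092 for Trp63, -0.15 to 0.025 for Mdm2, -0.31 to 0.10 for Mdm4 and -0.86 to 1.21 for Cdkn1a. For melatonin versus control they were -0.40 to 0.066 for Atr, -0.11 to 0.22 for Trp53, -0.13 to 0.043 for Mdm2 and -0.73 to 0.99 for Cdkn1a. Outside the 10 genes, Cdkn2a turned for melatonin versus Sudan I, with a range of -1.57 to 0.58.

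The summed level of the 10 genes was 1201 per kilobase of exon and 1536 per kilobase of the longest transcript, and their summed CPM was 2785 or, scaled to library totals, 2782. Depth limits Cdkn1a and Chek2, whose counts were lowest.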
